A study of Mus musculus with 11 samples.

Results

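Collagen chain genes encode the polypeptides that assemble by threes into collagen molecules. They were taken here as every row of the deposited table whose name is Col, digits, a, digits with nothing after, which gave 44 of 50600 rows. Of these, 11 encode fibrillar chains, 6 encode the type IV chains of basement membranes and 27 encode chains of other types. The filter on low counts left 15808 genes to test, of which 40 were collagen chain genes. The study banded the pulmonary artery of newborn mice (pulmonary artery banding, PAB), which narrows the vessel that leaves the right ventricle, and sequenced RNA of the heart at postnatal day 3 (P3) and postnatal day 7 (P7). The 4 groups were P3 sham with 3 libraries, P3 PAB with 3, P7 sham with 3 and P7 PAB with 2. All mice were C57BL/6 and were operated on at P0, and the sham controls went through surgery in which the artery was left unbanded. The tissue is heart by the labels and ventricles by the study's methods, so the loaded right ventricle was read together with the left, and no source used here says whether hearts were pooled.

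Fibrillar collagens, above all types I and III, form the tensile fibres between heart muscle cells and are made mainly by fibroblasts. Type IV collagens form the sheet-like network of the basement membrane that surrounds each cardiomyocyte and lies under the endothelium. The other types decorate fibrils, form beaded filaments or hexagonal networks, or span the cell membrane, and collagen deposition is a known part of the response of the adult heart to pressure.

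Values are deposited counts scaled by TMM to CPM (counts per 1000000). To be called higher or lower, a gene had to differ by at least 1.5 times with an adjusted p no larger than 0.05 in edgeR's quasi-likelihood test over all genes tested. Total counts were 19274045 to 26820228 per library. Nothing says that the libraries of a group came from separate litters or extractions, so p-values measure only the spread between these samples. The libraries stood apart in 2 ways that touch the P7 comparison. In both P7 PAB libraries the level of a gene fell with its exonic length, with slopes of -0.150 and -0.141 in log2 CPM per doubling of length relative to the mean of all libraries, against -0.0291 to 0.0668 in the other 9. Xist, the transcript of the inactive X chromosome, was high in the 3 P7 sham libraries and in P3 sham replicate 1, and Y-linked transcripts were present in the other 7 libraries, so that at P7 this class and the operation cannot be told apart. Heart markers were present throughout, with Tnnt2, cardiac troponin T, at 4696 to 5439 CPM. In bulk tissue, fewer cells of a type and less RNA per cell cannot be told apart.

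Collagen chain genes together took 1.02% ± 0.0457 (SD, n = 3) of all counts at P3 after sham operation and 1.01% ± 0.0411 (SD, n = 3) after banding. At P7 they took 0.966% ± 0.0385 (SD, n = 3) after sham operation and 0.783% ± 0.135 (SD, n = 2) after banding. Both P7 PAB libraries, at 0.688% and 0.878%, lay below the other 9, which ranged from 0.944% to 1.06%. At P7 the fibrillar chains took 0.456% ± 0.00665 in sham and 0.355% ± 0.0682 in banded hearts, and the type IV chains took 0.344% ± 0.0277 and 0.293% ± 0.0380. A sum of this kind is carried by few genes, since Col3a1, Col4a1, Col4a2, Col1a1 and Col1a2 held 74.0% to 76.4% of the collagen counts of every library. With mitochondrial counts left out of the total, the share at P7 was 1.23% after sham operation and 0.956% after banding. Both P7 PAB libraries are also those with the length trend, and no test was made on these sums.

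**Figure D1:**
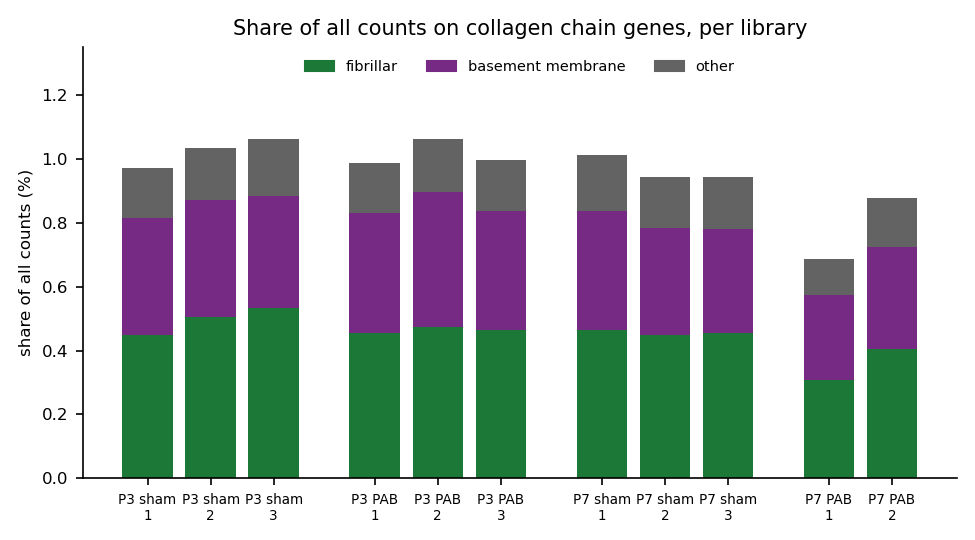
Share of all counts (percent, vertical axis) on fibrillar, basement membrane and other collagen chain genes, stacked, in each of the 11 libraries (horizontal axis, replicate numbers below the group names). The P7 PAB bars reach 0.688% and 0.878% and are the lowest.

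Per kilobase of the principal transcript, the order of levels was led by Col3a1 with 389 CPM per kb as the mean of the 4 groups, followed by Col4a1 with 292 and Col4a2 with 221. Col1a2 with 146 and Col1a1 with 141 came next and were close to each other. Type VI chains Col6a2 and Col6a1, at 89.8 and 78.9 CPM per kb, stood above Col15a1 at 50.8 and the type V chains Col5a1 and Col5a2 at 43.5 and 34.4. At the other end, Col6a4, Col10a1, Col17a1 and Col19a1 did not pass the filter on low counts, with at most 6, 2, 8 and 2 counts in any library. For Col10a1, the chain of growth plate cartilage, and Col19a1, a count of 0 in a library allows up to 0.114 to 0.148 CPM (3 counts, counting error only).

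At P3, no collagen chain gene was called in either direction among the 40 tested, and 17 of 15808 genes were called higher (0.108%) and 3 lower (0.019%) in the same comparison. By edgeR 8 of the 40 had an unadjusted p below 0.05, against 8.39% of all genes, and DESeq2 called 0 as well. The smallest was that of Col8a1, a short-chain collagen of vessel walls and valves, which was at 7.08, 5.48 and 5.10 CPM in sham hearts at P3 and 8.01, 9.14 and 8.25 CPM in banded hearts. All 3 banded libraries lay above all sham libraries. Its log2 fold change was 0.52 ± 0.12 (SE) with an adjusted p of 0.141, and without P3 sham replicate 1, the one with high Xist, it was 0.67 with an adjusted p of 0.0339. Col4a3 and Col11a2 were lower in each banded library than in each sham library, with log2 fold changes of -0.69 ± 0.19 and -0.76 ± 0.21 and adjusted p of 0.259 and 0.257. The genes of types I and III differed little at P3, with log2 fold changes of 0.0026 ± 0.12 for Col1a1, -0.010 ± 0.093 for Col1a2 and -0.10 ± 0.076 for Col3a1.

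At P7, 9 collagen chain genes were higher in PAB than in sham hearts and 6 were lower, with 25 not called. Leaving out each library in turn gave 6 to 9 higher and 3 to 9 lower, with 3 lower without P7 PAB replicate 1 and 6 higher and 9 lower without replicate 2. Over all genes tested, 9.63% were called higher and 8.59% lower in that comparison (9 and 6 of the 40 collagen chain genes). With no fold threshold, 9 were higher and 15 lower at an adjusted p of at most 0.05, against 22.8% and 22.1% of all genes. The median log2 fold change of the 40 was -0.094, and that of all genes was -0.0037. The higher genes were chains of cartilage-type fibrils (Col2a1, Col11a1 and the 3 type IX genes), Col12a1, both type VIII genes and Col26a1. The lower genes were Col4a3 and Col4a4 of basement membranes, Col6a6, Col15a1, Col25a1 and Col3a1. Neither type I gene was called.

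**Figure D2:**
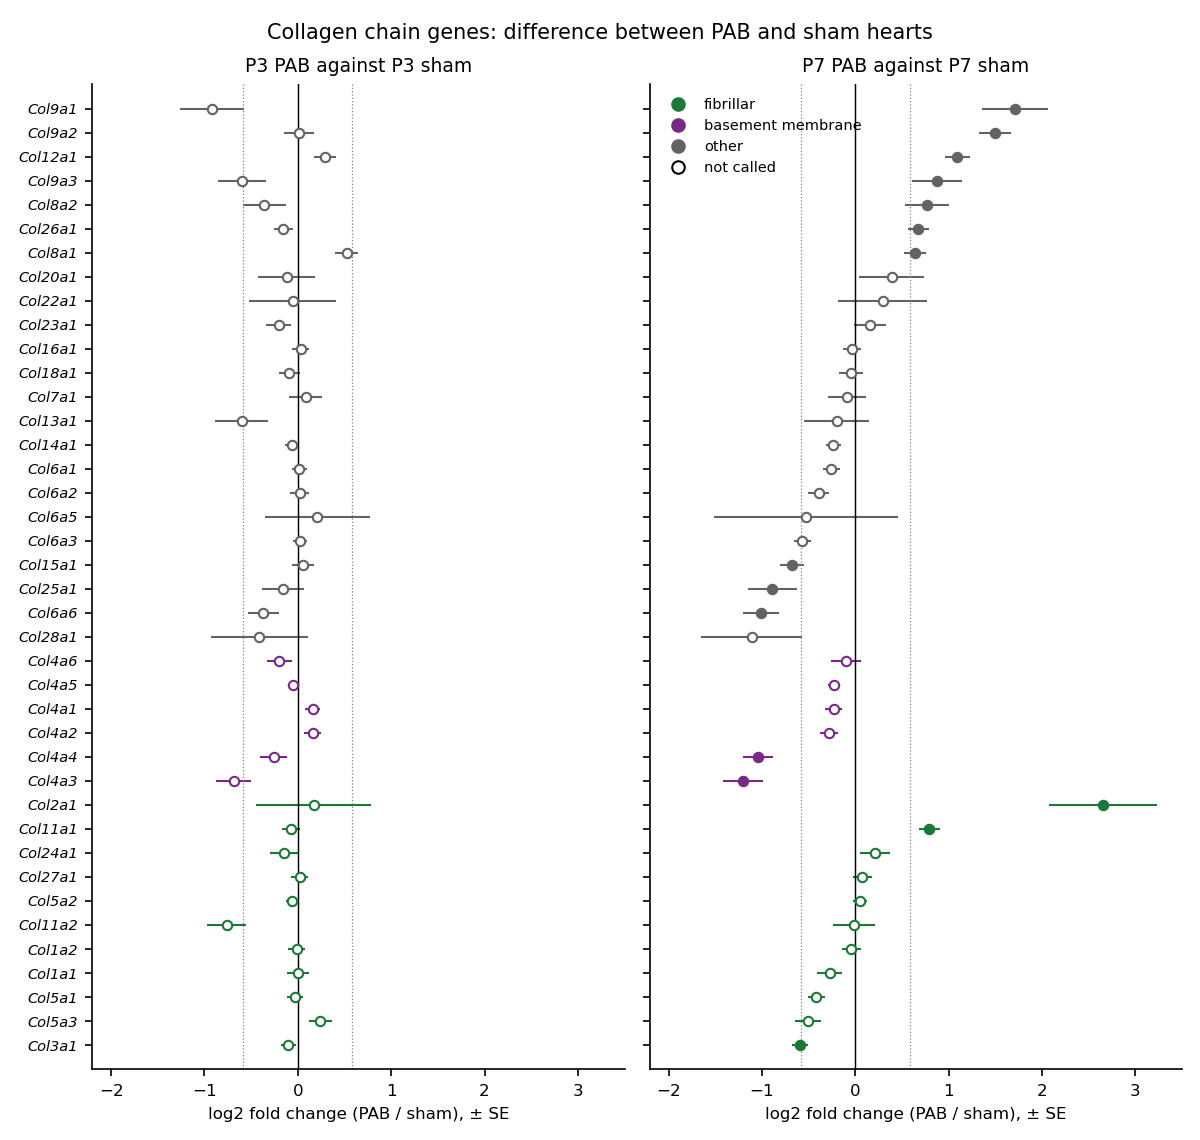
Log2 fold change of PAB over sham (horizontal axis) with its SE for the 40 tested collagen chain genes (rows), at P3 on the left and P7 on the right, coloured by class; filled points were called, and dotted lines mark a fold change of 1.5. At P3 no point is filled, while at P7 9 filled points lie on the right and 6 on the left.

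Among the 11 fibrillar chain genes, 2 were higher and 1 was lower at P7, against 9.63% and 8.59% of all genes. Type I collagen, the most abundant protein of scar and tendon, has the chains Col1a1 (GRCm38 chromosome 11, 94936224 to 94953042, plus strand) and Col1a2 (chromosome 6, 4504814 to 4541544, plus strand). Col1a1 was at 891, 725 and 779 CPM in sham hearts at P7 and 536 and 786 CPM in banded hearts. The banded libraries differed from each other by more than the sham libraries did, and the groups overlapped. The log2 fold change was -0.27 ± 0.13 (SE) with an adjusted p of 0.11. Col1a2 was at 836, 774 and 784 CPM in sham and 664 and 886 CPM in banded hearts, also overlapping, with a log2 fold change of -0.043 ± 0.10 and an adjusted p of 0.768. With the length trend removed, the log2 fold change was -0.11 for Col1a1 (adjusted p = 0.553) and 0.32 for Col1a2 (adjusted p = 0.0396), below the fold threshold. At P3 the Col1a1 levels had been 839.9, 999 and 976 CPM in sham and 897, 994 and 929 CPM in banded hearts, and those of Col1a2 715, 794 and 817 CPM and 729, 786 and 794 CPM. Neither chain was called between operations at either age. The value of Col1a1 at P7 depended on the banded library, with -0.023 (adjusted p = 0.909) without P7 PAB replicate 1 and -0.57 (adjusted p = 0.00275), just short of the fold threshold, without replicate 2.

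Type III collagen forms thin, compliant fibres together with type I. Col3a1 (chromosome 1, 45311538 to 45349706, plus strand) was at 2764, 2753 and 2853 CPM in sham hearts at P7 and 1686 and 2026 CPM in banded hearts. Both banded libraries lay below all 3 sham libraries. The level was 1.503-fold lower, at the threshold (log2 -0.59 ± 0.086, adjusted p = 7.64e-05). The call was lost under 9 of 22 alternatives. With the length trend removed the log2 fold change was -0.30 (adjusted p = 0.0115), and -0.47 with a term for the Xist and Y class as well. It was at -0.57 with total count scaling, with no filter and with 2 groups only, just short of the threshold. The call was also lost without P7 PAB replicate 1, when the log2 fold change was -0.46 (adjusted p = 0.00206), and without P7 sham replicate 3, when it was -0.57 (adjusted p = 4.32e-04). In the P3 libraries Col3a1 was at 1915, 2096 and 2220.0 CPM in sham and 1919, 1916 and 1981 CPM in PAB hearts, so 1 banded P7 library lay within and 1 below the P3 range, and the P7 sham libraries lay above it.

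Type V collagen lies within type I fibrils and sets their width. Col5a1 was at 436, 364 and 390.1 CPM in sham hearts at P7 and 269.7 and 325 CPM in banded hearts, without overlap. Its log2 fold change of -0.42 ± 0.093 had an adjusted p of 0.00196 but was below the fold threshold. Col5a2, its usual partner chain, was at 237, 248 and 231 CPM and 236 and 259 CPM, overlapping (0.051 ± 0.071, adjusted p = 0.589). With the length trend removed, Col5a1 was at -0.18 (adjusted p = 0.168) and Col5a2 at 0.33 (adjusted p = 0.0024). The third chain gene, Col5a3, was at 51.7, 40.8 and 45.7 CPM in sham and 26.6 and 38.4 CPM in banded hearts, again without overlap and below the fold threshold (-0.51 ± 0.14, adjusted p = 0.0087). Without P7 PAB replicate 1 the log2 fold change of Col5a3 was -0.26, and without replicate 2 it was -0.79. With the length trend removed it was -0.33 (adjusted p = 0.0873). At P3 the 3 genes were at 374, 384 and 407 CPM (Col5a1), 212, 211 and 227 CPM (Col5a2) and 31.8, 31.96 and 30.9 CPM (Col5a3) in sham hearts. The P3 PAB hearts had 369.6, 387 and 383 CPM of Col5a1, 207, 213 and 204 CPM of Col5a2 and 42.2, 37.6 and 32.3 CPM of Col5a3, which overlapped sham for the first and second but not for Col5a3.

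Types II, IX and XI build the thin fibrils of cartilage, and type XI chains also occur in heart valves. Col11a1 (chromosome 3, 114030540 to 114220718, plus strand) was at 7.10, 7.00 and 6.83 CPM in sham hearts at P7 and 11.8 and 12.4 CPM in banded hearts. Both banded libraries were above all sham libraries, and the log2 fold change was 0.79 ± 0.11 (adjusted p = 5.86e-05). The P3 levels were 12.4, 11.00 and 10.3 CPM in sham and 10.8, 11.6 and 9.71 CPM in banded hearts, a range that reached the level of the banded P7 hearts. Col9a2, a type IX chain that coats such fibrils, was at 4.73, 3.84 and 3.23 CPM in sham hearts at P7 and 12.7 and 9.36 CPM in banded hearts. Its log2 fold change was 1.499 ± 0.17 (adjusted p = 1.05e-05), and the P3 libraries were at 5.54, 5.55 and 5.70 CPM in sham and 4.73, 6.28 and 5.93 CPM in PAB hearts. Here the banded P7 hearts were above every other library.

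The remaining genes of the cartilage fibril were sparse. Col2a1, the main chain of cartilage, had 4, 7 and 4 counts in the P7 sham and 30 and 34 counts in the P7 PAB libraries. Its 6 P3 libraries held 2 to 15 counts, and the log2 fold change at P7 was 2.65 ± 0.58 (adjusted p = 0.00174). Col9a1 had 11, 16 and 27 counts in P7 sham and 54 and 63 in P7 PAB libraries, a log2 fold change of 1.71 ± 0.36 (adjusted p = 0.00128). Its P3 libraries held 52, 27 and 33 counts in sham and 14, 19 and 27 counts in PAB hearts. At P7 both Col2a1 and Col9a1 were higher in each banded than in each sham library. Col9a3 rose by 0.88 ± 0.27 on the log2 scale (adjusted p = 0.0153) from 1.09 to 2.01 CPM, a call lost without P7 PAB replicate 2 (adjusted p = 0.146) and without P7 sham replicate 3 (adjusted p = 0.0643). Of its exonic bases, 6.07% are shared with Tcfl5 on the opposite strand, whose reads cannot be told apart without a strand setting. Col11a2 was not called (-0.0100 ± 0.23, adjusted p = 0.978).

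Markers of cartilage and bone were read beside these genes. Of the 9 markers listed, 4 passed the filter and 2 were called. Acan, the proteoglycan of cartilage, and Comp, an organizer of its matrix, were higher at P7 with log2 fold changes of 1.15 ± 0.23 and 1.40 ± 0.23 (adjusted p = 7.81e-04 and 1.83e-04). The summed level of the list was 12.3 to 14.5 CPM in sham hearts at P7 and 17.5 to 19.8 CPM in banded hearts, and 14.3 to 22.1 CPM in the P3 libraries. Hapln1 and Sox9, the regulator of cartilage fate, were not called (0.055 ± 0.36 and -0.29 ± 0.14). Matn1, Matn3, Lect1 and Bglap had at most 1, 2, 10 and 2 counts in any library, and Ibsp had none. Whether cartilage or valve tissue in the sample had a part in the change of the type II, IX and XI genes was not tested.

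The other fibrillar chain genes were not called at P7. Col24a1 and Col27a1, fibrillar chains of bone and cartilage, had log2 fold changes of 0.21 ± 0.16 and 0.077 ± 0.10 with adjusted p of 0.315 and 0.55. With the length trend removed these were 0.42 and 0.46 (adjusted p = 0.0485 and 0.00133), below the fold threshold. Levels of Col24a1 and Col27a1 were 3.07 to 4.85 CPM and 14.9 to 20.9 CPM over the 11 libraries.

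The 6 type IV genes lie in 3 head-to-head pairs. Col4a1 and Col4a2 on chromosome 8 start on opposite strands with annotated first exons that overlap by 22 bases. Col4a4 and Col4a3 on chromosome 1 are separated by 71 bases, and Col4a6 and Col4a5 on the X chromosome by 1308 bases. The stretch between Col4a4 and Col4a3 is shown because both genes were called in the same direction. The 120 bases before Col4a6 and before Col4a5 are shown beside it, each on the strand of its gene, because the members of that pair stood at different levels, 0.888 and 18.8 CPM per kb as the mean of the 4 groups. Sequences are from RefSeq promoters and the GRCm38.p6 assembly. Capitals mark a GC box (GGGCGG on either strand), the only one of the 3 motifs searched that was found in these stretches. In the longer window of 250 bases before the RefSeq start, Col4a5 had a GC box and the letters CCAAT. Col4a6 had a GC box only. A GC box was thus found for both members of the pair, and its absence from the shorter Col4a5 stretch does not set them apart.
Col4a4-Col4a3 interval (chr1:82586850-82586920, plus strand): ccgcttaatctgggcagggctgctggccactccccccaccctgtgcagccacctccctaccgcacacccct
Col4a6 upstream (chrX:141474077-141474196, minus strand): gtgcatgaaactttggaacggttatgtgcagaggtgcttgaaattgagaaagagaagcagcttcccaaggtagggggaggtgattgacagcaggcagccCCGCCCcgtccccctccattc
Col4a5 upstream (chrX:141475265-141475384, plus strand): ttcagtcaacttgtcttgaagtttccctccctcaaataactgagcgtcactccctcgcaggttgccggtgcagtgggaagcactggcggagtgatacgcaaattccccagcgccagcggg

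All 6 type IV genes, which lie in 3 head-to-head pairs, had a negative log2 fold change at P7, as did 50.3% of all genes, and 2 were called lower, against 8.59%. The sign turned for Col4a6 with the length trend removed (0.12), and for Col4a6 and Col4a1 with a term for the Xist and Y class added to that (0.16 and 0.023). Col4a4, a chain of specialised basement membranes, was at 10.9, 11.4 and 11.4 CPM in sham hearts at P7 and 4.98 and 5.96 CPM in banded hearts. The sham libraries were close together and about 2 times as high. Its log2 fold change was -1.04 ± 0.16 (adjusted p = 9.12e-05). The P3 libraries were at 5.54, 6.43 and 5.52 CPM in sham and 3.74, 5.41 and 5.52 CPM in banded hearts, so the banded P7 hearts stood within the P3 range. Col4a3, its neighbour and partner chain, was at 4.94 ± 0.371 CPM (SD, n = 3) in P7 sham and 2.13 ± 0.506 CPM (SD, n = 2) in P7 PAB hearts, with 106, 93 and 121 counts and 57 and 36 counts. Its groups did not overlap, and the log2 fold change was -1.20 ± 0.21 (adjusted p = 3.16e-04). With a term for the Xist and Y class it was -1.04 with an adjusted p of 0.0538. Of its exonic bases, 5.65% are shared with C430014B12Rik on the opposite strand.

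The abundant pair moved less. Col4a1 (chromosome 8, 11198423 to 11312826, minus strand), the backbone of every basement membrane with Col4a2, was at 2316, 2036 and 1989 CPM in sham hearts at P7 and 1675 and 1925 CPM in banded hearts. Col4a2 (chromosome 8, 11312805 to 11449287, plus strand) was at 1788, 1462 and 1487 CPM and 1198 and 1403 CPM. In both genes the higher banded library was just below the lowest sham library. The log2 fold changes were -0.23 ± 0.090 and -0.28 ± 0.10 with adjusted p of 0.0472 and 0.0326, below the fold threshold. Without P7 PAB replicate 1 they were -0.13 and -0.17, and without replicate 2 they were -0.33 and -0.40. With a term for the Xist and Y class they were -0.18 and -0.21 (adjusted p = 0.447 and 0.421). At P3 the signs were opposite, with Col4a1 at 1845, 1837 and 1725 CPM in sham and 1938, 2174 and 1923 CPM in PAB and Col4a2 at 1375, 1359 and 1258 CPM and 1403, 1598 and 1457 CPM. Neither reached significance there (adjusted p = 0.639 and 0.692). Col4a5 was at 134, 137 and 140.4 CPM in sham hearts at P7 and 116 and 119 CPM in banded hearts (-0.23 ± 0.065, adjusted p = 0.0105), and at 119, 117 and 125 CPM and 121, 116 and 113 CPM in P3 sham and P3 PAB hearts. It is X-linked, and the P7 sham libraries are those with high Xist. With a term for the Xist and Y class the log2 fold change was -0.25 (adjusted p = 0.151), and the part of the class in this difference was not tested. Its X-linked neighbour Col4a6 was at 4.67 to 7.68 CPM over the 11 libraries and was not called (-0.10 ± 0.16, adjusted p = 0.65).

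Endothelial markers and the partners of type IV in the basement membrane were read beside these genes. Of the 7 endothelial markers, Egfl7 was higher at P7 (0.65 ± 0.075, adjusted p = 1.04e-05) and none was called lower. Kdr and Cdh5, the VEGF receptor and the cadherin of endothelium, were lower in each banded than in each sham library but below the fold threshold (-0.50 ± 0.068 and -0.53 ± 0.10, adjusted p = 3.95e-05 and 4.90e-04). Of the 7 markers, 5 had an adjusted p of at most 0.05, 3 of them positive, against 22.8% of all genes higher and 22.1% lower. The summed level of these markers was 1455 to 1533 CPM in sham and 1245 to 1370.3 CPM in banded hearts. Of 9 laminin, nidogen and perlecan genes, 1 was called lower at P7, Lama2, the laminin chain of muscle, with a log2 fold change of -0.78 ± 0.088 (adjusted p = 9.01e-06) from 322 ± 17.6 to 188 ± 4.53 CPM. At an adjusted p of at most 0.05 with no fold threshold 7 of the 9 passed, all negative, against 22.1% of all genes lower. The median log2 fold change of the 9 was -0.36. Both P7 PAB libraries carry the length trend, and these values are given without its removal. The part of these markers and partners in the change of the type IV genes was not tested.

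Of the 23 tested chain genes of other types, 7 were higher, the type IX genes among them, and 3 were lower at P7. Over all genes the shares were 9.63% and 8.59%. Col12a1, a long chain that links fibrils and is known in loaded tendon and healing tissue, was at 16.5, 18.3 and 12.95 CPM in sham hearts at P7 and 37.1 and 30.5 CPM in banded hearts. Both banded libraries were well above all sham libraries, and the log2 fold change was 1.09 ± 0.13 (adjusted p = 1.60e-05). In P3 hearts it was at 29.3, 27.6 and 24.7 CPM with sham and 31.6, 31.1 and 37.001 CPM with banding, without overlap but not called (0.29 ± 0.11, adjusted p = 0.495). Col14a1, a related chain, was lower in each banded P7 library than in sham but below the fold threshold (-0.24 ± 0.082, adjusted p = 0.0283), from 193 ± 4.20 to 164 ± 15.3 CPM. Its log2 fold change was -0.14 without P7 PAB replicate 1 and -0.33 without replicate 2. With the length trend removed it was -0.051 (adjusted p = 0.637). Col16a1, Col20a1 and Col22a1, further fibril-associated chains at 39.7 to 52.3, 0.503 to 1.18 and 0.210 to 0.830 CPM over the libraries, were not called, with log2 fold changes of -0.034, 0.39 and 0.29.

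Type VIII collagen forms hexagonal networks in vessel walls. Col8a1 (chromosome 16, 57624258 to 57754737, minus strand) was at 10.9, 12.6 and 11.5 CPM in sham hearts at P7 and 18.4 and 18.1 CPM in banded hearts. The banded pair was tight and above all other libraries, with a log2 fold change of 0.64 ± 0.12 (adjusted p = 4.70e-04). Col8a2 was at 3.27 ± 0.481 CPM (SD, n = 3) and 5.57 ± 2.01 CPM (SD, n = 2), with a log2 fold change of 0.77 ± 0.23 (adjusted p = 0.0148). This call rested on P7 PAB replicate 2, without which the log2 fold change was 0.35 (adjusted p = 0.308), and it was lost without P7 sham replicate 3 (0.67, adjusted p = 0.0566). Col26a1, a short chain with an EMI domain, was at 12.02, 11.6 and 12.1 CPM in sham hearts at P7 and 16.9 and 21.3 CPM in banded hearts. Both banded libraries were higher (0.68 ± 0.11, adjusted p = 2.40e-04), and without replicate 2 the change of 0.51 was below the fold threshold. The P3 libraries of Col26a1 were at 13.4, 11.6 and 13.1 CPM in sham and 11.04, 12.6 and 10.5 CPM in PAB hearts.

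Type VI collagen forms beaded filaments close to the cell surface. Col6a6 was at 53.5, 63.5 and 66.7 CPM in sham hearts at P7 and 24.8 and 36.4 CPM in banded hearts. Both banded libraries lay below all sham libraries, with a log2 fold change of -1.01 ± 0.19 (adjusted p = 6.53e-04). Its P3 libraries were spread widely, at 36.8, 42.2 and 58.3 CPM in sham and 29.5, 35.4 and 41.1 CPM in PAB hearts. Col6a3, at 198 ± 7.48 CPM in sham and 134 ± 20.3 CPM in banded hearts, fell short of the fold threshold at -0.57 ± 0.089 (adjusted p = 1.41e-04). Without P7 PAB replicate 1 its log2 fold change was -0.42, and without replicate 2 it was -0.73. With the length trend removed it was -0.22 (adjusted p = 0.0926). Col6a1 and Col6a2, the other main chains, ranged over 276 to 396 CPM and 266 to 459 CPM in the 11 libraries. They had log2 fold changes of -0.25 ± 0.090 and -0.39 ± 0.12 with adjusted p of 0.0317 and 0.0121, both below the fold threshold. Without P7 PAB replicate 1 these were -0.095 and -0.17, and without replicate 2 they were -0.43 and -0.65. With the length trend removed they were -0.24 and -0.16 (adjusted p = 0.0405 and 0.314). Col6a5 held 0 to 15 counts in each library and was not called (-0.52 ± 0.98).

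Col15a1, a basement membrane-associated chain that bridges to fibrils, was at 377, 325 and 359 CPM in sham hearts at P7 and 182 and 261 CPM in banded hearts. The banded libraries were lower and far apart, with a log2 fold change of -0.68 ± 0.13 (adjusted p = 7.35e-04). Without P7 PAB replicate 1 the log2 fold change was -0.44 and the call was lost. Its P3 libraries were at 213, 227 and 261 CPM in sham and 222, 251 and 257 CPM in banded hearts. Col18a1, its relative and the source of endostatin, was at 124 to 178 CPM over the libraries and was not called (-0.045 ± 0.13, adjusted p = 0.803). Among transmembrane chains, Col25a1 was called lower at -0.89 ± 0.27 (adjusted p = 0.0132), from 2.16 ± 0.203 to 1.17 ± 0.362 CPM, a call lost without P7 PAB replicate 1 (adjusted p = 0.17). Col13a1 and Col23a1 were not called, nor were Col7a1 of anchoring fibrils and Col28a1, with log2 fold changes of -0.20, 0.16, -0.088 and -1.11. Over the 11 libraries Col13a1 was at 1.22 to 4.09, Col23a1 at 4.14 to 8.42 and Col7a1 at 2.51 to 4.07 CPM. The change of Col28a1 is from few counts, 14, 31 and 57 in P7 sham and 19 and 12 in P7 PAB libraries (adjusted p = 0.111).

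**Figure D3:**
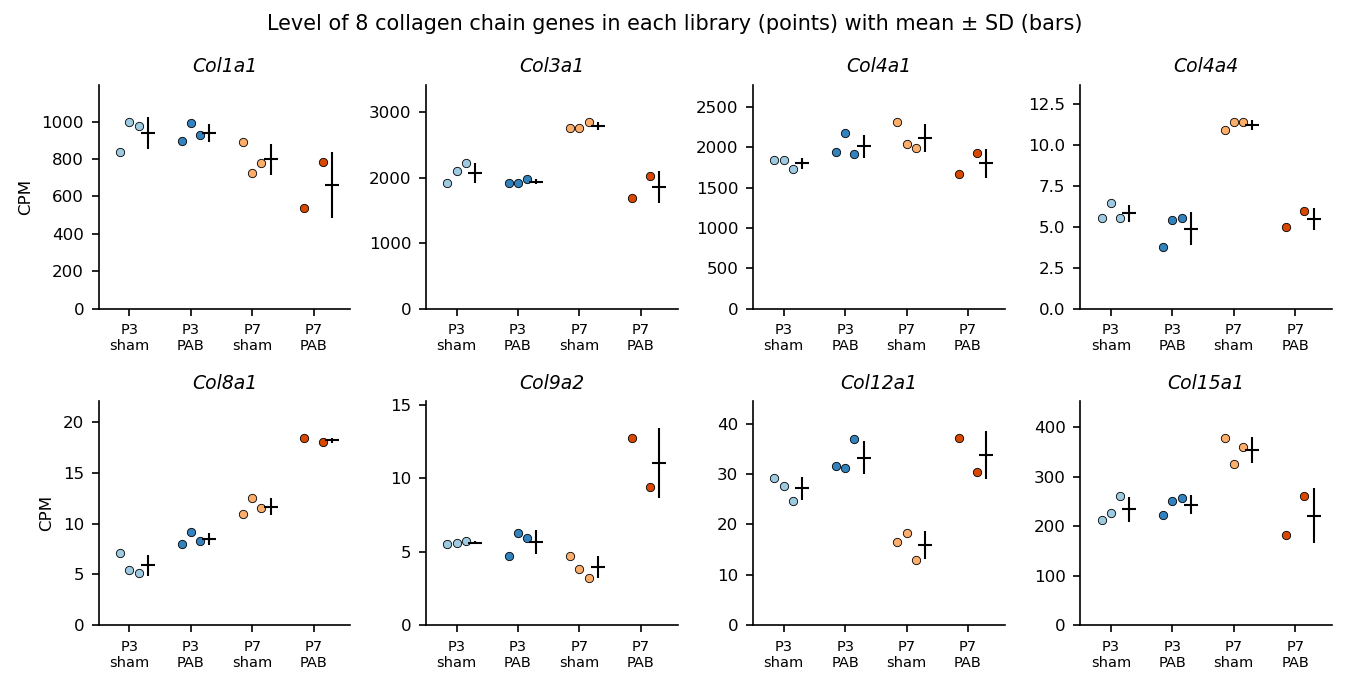
CPM (vertical axes, from 0) of 8 collagen chain genes in each library of the 4 groups, with the mean and SD beside the points. Col8a1, Col9a2 and Col12a1 lie higher after banding than after sham operation at P7, and Col3a1, Col4a4 and Col15a1 lie lower, while Col1a1 overlaps between the operations.

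The difference between PAB and sham was itself compared between P7 and P3. Of the 40 genes, 8 had a positive and 8 a negative value of the difference at P7 minus that at P3, at an adjusted p of at most 0.05, with no fold threshold, against 13.3% and 12.6% of all genes. The interaction was largest for Col9a1 (2.63 ± 0.49, adjusted p = 0.00173) and Col2a1 (2.48 ± 0.87, adjusted p = 0.048), both from few counts. For Col9a1 the log2 fold changes were -0.92 at P3, not called, and 1.71 at P7. Those of Col9a3 were -0.60 at P3, not called, and 0.88 at P7. Among genes with a mean of at least 10 CPM in any group, Col9a2 had 1.49 ± 0.23 (adjusted p = 5.67e-04) and Col11a1 had 0.86 ± 0.15 (adjusted p = 0.00103). On the negative side, Col4a1 and Col4a2 had -0.39 ± 0.12 and -0.44 ± 0.13 (adjusted p = 0.0274 and 0.0255), and Col3a1 had -0.49 ± 0.11 (adjusted p = 0.00653). Col1a1 and Col1a2 did not pass (adjusted p = 0.277 and 0.891), and neither did Col8a1 (adjusted p = 0.642), whose log2 fold changes were 0.52 at P3 and 0.64 at P7. With the length trend removed, 11 genes passed in the positive and 2, Col5a3 and Col15a1, in the negative direction. The share of all genes passing in that fit is not given. Without P7 PAB replicate 1 the negative count was 3, without replicate 2 it was 12 and without P3 PAB replicate 2 it was 5.

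The trend with gene length bears on these calls because collagen chain genes are long. The median exonic length was 7727 bases for the 40 tested genes and 4174 for the 15220 tested genes with a length. With the trend of each library removed, 9 collagen chain genes were called higher at P7 and 3 lower, Col4a3, Col4a4 and Col6a6, and the median of the 40 turned from -0.094 to 0.13. Col3a1 was then at -0.30 (adjusted p = 0.0115), Col15a1 at -0.53 (adjusted p = 0.00571) and Col25a1 at -0.51 (adjusted p = 0.144). Col4a1 and Col4a2 were at -0.034 and -0.12 with adjusted p of 0.812 and 0.418. Col12a1 and Col11a1, both long and higher, went further from 0, to 1.52 and 1.17. Col1a2, Col5a2, Col24a1 and Col27a1, not called in either fit, then had positive values of 0.32, 0.33, 0.42 and 0.46. Each of these had an adjusted p of at most 0.05. With a term for the Xist and Y class, which only the P3 sham libraries can inform, 7 genes were called higher and 6 lower. Col4a3, Col8a2, Col9a3 and Col25a1 were no longer called, while Col6a3 and Col28a1 were. Shares of all genes called in these fits are not given, so these counts are not set against them.

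**Figure D4:**
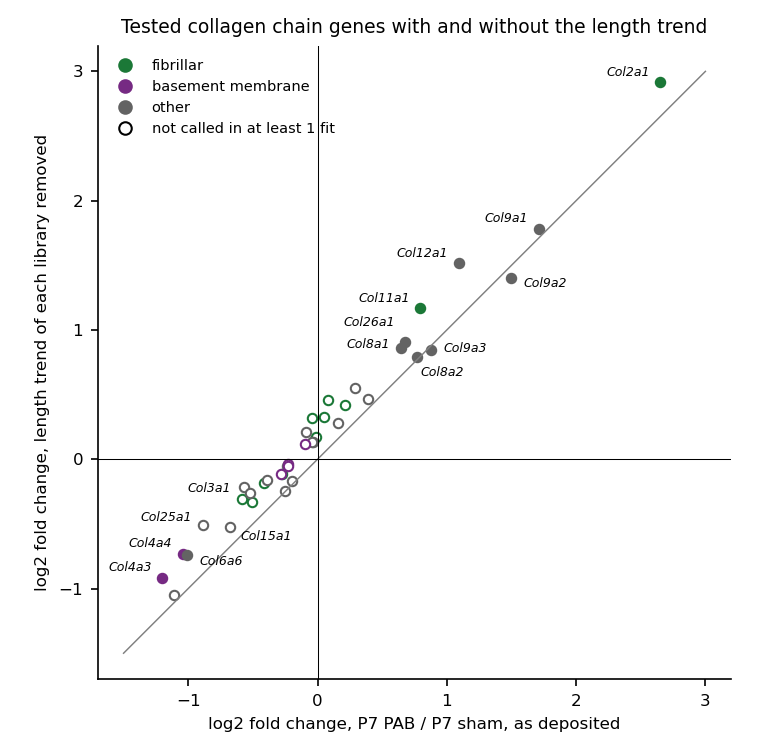
Log2 fold change of P7 PAB over P7 sham for the 40 tested collagen chain genes, from the counts as deposited (horizontal axis) and after the length trend of each library was removed (vertical axis); the line marks equal values and filled points were called in both fits. Most points lie above the line, and Col3a1, Col15a1 and Col25a1 are open on the lower side.

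From P3 to P7 in sham hearts, 4 collagen chain genes were higher and 3 lower, against 5.62% and 5.73% of all genes. Without the fold threshold the counts were 14 higher and 5 lower, against 16.2% and 16.8% of all genes. Col8a1 rose from 5.89 ± 1.05 to 11.7 ± 0.834 CPM (SD over 3 libraries), which is 0.99 ± 0.12 in log2 (adjusted p = 2.54e-05). Col4a4 rose by 0.94 ± 0.13 (adjusted p = 1.11e-04), Col4a3 by 0.73 ± 0.17 (adjusted p = 0.0052) and Col15a1 by 0.60 ± 0.12 (adjusted p = 0.00119) on the log2 scale. The sham hearts of the 2 ages did not overlap for any of these genes. The Col15a1 call was lost without P3 sham replicate 1 (0.53), P3 sham replicate 2 (0.58) or P7 sham replicate 1 (0.55), each below the fold threshold, and with the length trend removed. That of Col4a3 was lost with a term for the Xist and Y class (0.62, adjusted p = 0.126), and both were lost with total count scaling. Col12a1, Col23a1 and Col11a1 were lower at P7, with log2 fold changes of -0.78 ± 0.12, -0.75 ± 0.14 and -0.68 ± 0.10 (adjusted p = 2.36e-04, 0.00115 and 1.62e-04). Col3a1 was at 0.43 ± 0.076 and Col14a1 at 0.57 ± 0.073, with adjusted p of 6.77e-04 and 4.69e-05 but below the fold threshold. These sham P7 libraries also serve in the P7 comparison of operations, so the 2 comparisons are not independent. The count of lower genes was 5 without P3 sham replicate 2.

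In PAB hearts, 8 genes were higher at P7 than at P3 and none was lower by edgeR or DESeq2, against 9.5% and 8.2% of all genes. In edgeR's test 17 of the 40 had an unadjusted p below 0.05 in either direction, against 50.7% of all genes. With no fold threshold, 12 were higher and 3 lower at an adjusted p of at most 0.05, against 22.3% and 21.2% of all genes. The 8 higher genes were Col2a1, all 3 type IX genes, Col11a2, both type VIII genes and Col26a1. Col8a1 rose from 8.46 ± 0.593 CPM (SD, n = 3) to 18.3 ± 0.244 CPM (SD, n = 2), a log2 fold change of 1.11 ± 0.12 (adjusted p = 6.46e-06). Col8a2 rose by 1.29 ± 0.24 (adjusted p = 5.36e-04), Col9a2 by 0.97 ± 0.16 (adjusted p = 2.64e-04) and Col26a1 by 0.74 ± 0.11 (adjusted p = 1.14e-04). Col11a2 rose by 0.69 ± 0.23 (adjusted p = 0.0261) from 2.66 to 4.32 CPM. Col1a1 was at -0.51 ± 0.13 (adjusted p = 0.0064), below the fold threshold, and Col3a1 and Col4a4 were not called (-0.063 ± 0.085 and 0.16 ± 0.16). Without P7 PAB replicate 2, Col11a2 and Col26a1 were no longer called and 2 genes were called lower, and without P3 PAB replicate 1, 1 gene was called lower. With scaling by the total count alone, the median of all genes moved by -0.31 in sham and -0.25 in banded hearts. The calls became 2 higher and 7 lower in sham and 6 higher and 5 lower in PAB hearts. The share of all genes called with this scaling is not given, so these counts are not set against it.

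Ratios of chains that assemble together do not depend on the scaling of a library, but they do depend on its length trend where the genes differ in length. The Col1a2 to Col1a1 ratio rose with age by 0.38 in log2 (exact two-sided permutation test over all splits of 6 P3 and 5 P7 libraries, adjusted p = 0.00649 over 6 ratios, from the smallest p these splits allow). At P3 it was 0.827 after sham operation and 0.819 after banding, and at P7 it was 1.00 and 1.18, and all P7 libraries lay above all P3 libraries. The increase was 0.28 within sham and 0.53 within PAB libraries. Col3a1 to Col1a1 rose by 0.59 (adjusted p = 0.00649 by the same exact test), from 2.22 (sham) and 2.06 (PAB) at P3 to 3.51 and 2.85 at P7, again without overlap between ages.

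Col5a2 to Col5a1 rose by 0.31 over both operations (adjusted p = 0.026 by the exact permutation test), with 0.11 within sham and 0.61 within PAB libraries. The ratio was 0.558 (sham) and 0.547 (PAB) at P3 and 0.603 and 0.835 at P7, with both P7 PAB libraries above all others. The call was lost without most single libraries, with differences between 0.23 and 0.40. Col4a2 to Col4a1 stayed between 0.722 and 0.746 in the group means and differed with age by -0.0047 (adjusted p = 0.835, exact permutation test). Col6a2 to Col6a1 and Col6a3 to Col6a1 differed by -0.049 and -0.14 (adjusted p = 0.444 and 0.146, exact permutation test), and Col6a3 to Col6a1 was 0.429 in P7 PAB against 0.531 to 0.538 in the other groups. With the length trend removed, an alternative added after seeing the data, the log2 difference of PAB from sham hearts at P7 went from -0.31 to 0.030 for Col6a3 to Col6a1 and from -0.15 to 0.075 for Col6a2 to Col6a1. It went from 0.24 to 0.43 for Col1a2 to Col1a1, from -0.30 to -0.18 for Col3a1 to Col1a1, from 0.47 to 0.51 for Col5a2 to Col5a1 and from -0.046 to -0.080 for Col4a2 to Col4a1. For Col4a2 to Col4a1 both P7 PAB libraries then lay below all others. Within 1 age, an exact permutation test of 3 libraries against 3 or 2 cannot go below p = 0.1, so ratios of PAB and sham hearts are given as values only.

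**Figure D5:**
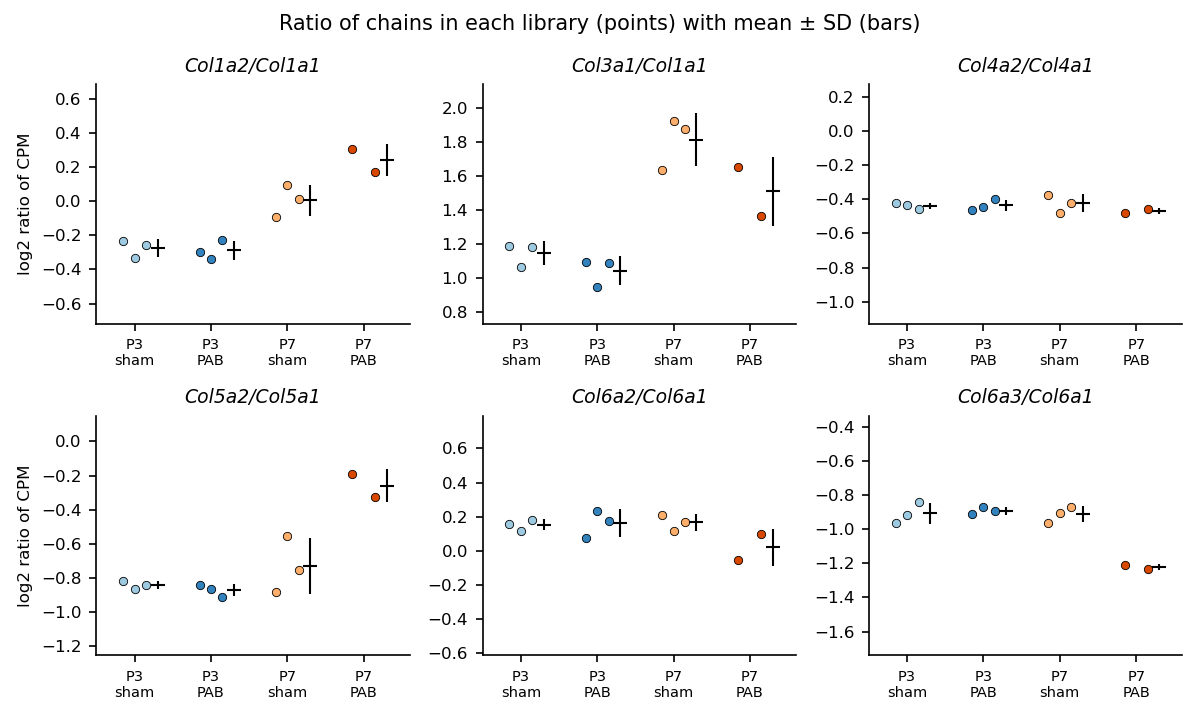
Log2 ratio of CPM (vertical axes, each spanning the same range) of 6 pairs of chains in each library of the 4 groups, with the mean and SD beside the points. Col1a2/Col1a1 and Col3a1/Col1a1 are higher in all P7 than in all P3 libraries, Col5a2/Col5a1 is highest and Col6a3/Col6a1 lowest in the P7 PAB libraries, and Col4a2/Col4a1 is flat. With the length trend removed, which is not drawn, the P7 PAB libraries are not lowest for Col6a3/Col6a1. They are then lowest for Col4a2/Col4a1 and highest for Col1a2/Col1a1 and Col5a2/Col5a1.

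Genes that process, bind or break down collagen were read in the same fit. Single genes of these lists and of the cell marker lists are given without removal of the length trend. Of 35 collagen processing genes, 34 were tested, and at P7 4 were higher and 3 lower, against 9.63% and 8.59% of all genes. The higher ones were P3h2 and P4ha3, which hydroxylate prolines, Ppib, a prolyl isomerase of the procollagen complex, and Lox, which cross-links collagen. P3h2 went from 5.68 ± 0.506 to 12.2 ± 2.53 CPM (1.11 ± 0.14, adjusted p = 2.06e-05), Ppib from 113 ± 5.92 to 187 ± 5.50 CPM (0.72 ± 0.072, adjusted p = 3.37e-06) and Lox from 31.5 ± 2.71 to 49.9 ± 5.66 CPM (0.66 ± 0.094, adjusted p = 5.79e-05). The lower ones were Colgalt2, a collagen galactosyltransferase, Adamts3, a procollagen protease, and Tll2. Colgalt2 was at -0.78 ± 0.13 (adjusted p = 2.89e-04), and Adamts3, at -0.89 ± 0.16 (adjusted p = 3.50e-04), fell from 9.96 ± 1.18 to 5.43 ± 1.31 CPM. The median log2 fold change of the list was 0.26. No gene of this list was called at P3 by edgeR, while DESeq2 called P3h2 higher (0.62, adjusted p = 0.0153).

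In the list of 8 receptors, Ddr1 and Itga11 were higher and Ddr2 was lower at P7. The discoidin receptors Ddr1 and Ddr2 had log2 fold changes of 0.59 ± 0.10 and -0.60 ± 0.082 (adjusted p = 2.76e-04 and 3.86e-05). Of 10 degradation genes, Timp1, an inhibitor of matrix metalloproteinases, was higher (0.71 ± 0.15, adjusted p = 0.00143) and none was lower. Among 8 partners in fibril formation, Fmod was higher (0.98 ± 0.16, adjusted p = 1.76e-04) and Tnxb lower (-0.80 ± 0.14, adjusted p = 2.56e-04). Of 6 inducers of collagen, Ctgf, a matrix protein induced by load and TGF-beta, rose from 72.5 ± 5.46 to 217 ± 59.98 CPM at P7 (1.58 ± 0.24, adjusted p = 9.15e-05). None of these 4 lists had a call at P3. With age, Dcn and Lum, proteoglycans that coat type I fibrils, were higher at P7 in sham hearts, with log2 fold changes of 0.78 ± 0.083 and 0.98 ± 0.085 (adjusted p = 9.20e-06 and 1.47e-06). In PAB hearts Dcn, Lum, Fmod and Bgn were higher at P7 (0.73, 1.02, 1.26 and 0.63). Of the processing genes, Pcolce2, an enhancer of procollagen cleavage, was higher at P7 in both, at 1.61 ± 0.15 in sham and 0.94 ± 0.16 in PAB hearts.

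Of 8 fibroblast markers, 1 was called at P7, Pdgfra, which was lower at -0.63 ± 0.078 (adjusted p = 1.94e-05). Their summed level was 1073 to 1130.1 CPM in sham and 971 to 1110.0 CPM in PAB hearts. Of 7 markers of activated fibroblasts, Lox, Tnc, Cthrc1 and Cilp were higher, with log2 fold changes of 0.66, 0.70, 0.72 and 0.75, and none was lower. That list summed to 2149 to 2523 CPM in sham and 2584 to 2747 CPM in banded hearts. Of 7 mural markers, Tagln and Cnn1 were higher, at 1.19 ± 0.11 and 2.56 ± 0.29 (adjusted p = 2.68e-06 and 1.00e-05). Rgs5, a pericyte marker, was at -0.55 ± 0.092 (adjusted p = 2.34e-04), below the fold threshold. The median log2 fold change of the 7 was -0.087, and their summed level was 1086 to 1135 CPM in sham and 885 to 953 CPM in PAB hearts. Skin, Schwann and macrophage markers had 1 call among the 10 of their 14 genes that were tested, Mrc1 (-0.60). The macrophage list summed to 82.5 to 105 CPM in sham and 67.1 to 77.3 CPM in PAB hearts. Of 6 cardiomyocyte markers, Myh6 and Ryr2 were lower (-0.89 and -0.90), and the list summed to 42242 to 49181 CPM in sham and 29514 to 31330.0 CPM in PAB hearts. Of 6 epicardial markers 1 was higher and 2 were lower, with sums of 45.8 to 56.7 CPM in sham and 42.3 to 48.8 CPM in PAB hearts, and of 2 tested skeletal muscle markers 1, Myh8, was higher. The part of any of these cells in the collagen values was not tested.

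In the RefSeq table of promoters, 35 of the 44 genes were matched, with 38 windows. In the 250 bases before the start, searched on both strands, TATAAA was found in 13.2% of these windows and 12.4% of the 32851 windows of all genes, and CCAAT in 34.2% and 33.8%. GGGCGG, the GC box, was in 57.9% and 32.7%. No motif of the 3 is part of another. These are matches of letters in a window and nothing more.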

How the data were processed

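RNA of 11 libraries was sequenced, and per the labels and the study's methods the authors used STAR 2.5.2b with GRCm38 and deposited unnormalized counts per gene, while the counting tool and strand setting are not given in the sources used here. The counts were scaled by TMM and tested with edgeR 4.0.16's quasi-likelihood test (R 4.3.3) in 1 model of the 4 groups over the 15808 genes that passed filterByExpr, with Benjamini-Hochberg adjustment. Calls required a change of 1.5 times or more with an adjusted p no larger than 0.05, and the interaction of age and operation required the second only. Total counts were 19274045 to 26820228 per library, and intervals and floors cover counting error only. Group means are given with the SD, log2 fold changes with the SE.

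The members and the lists were chosen with earlier results of these data known. A member was given in every library where its mean reached 10 CPM in any group and it was called in 1 of the 4 comparisons between groups or belongs to types I, III, IV or V. Other tested members were given by means or ranges and untested ones by their highest count. Genes of the lists were named where they were called with a mean of at least 10 CPM in any group, at most 4 each way, and defining cell markers where their list was read. P4ha3, Tll2, Itga11 and Myh8, all under 10 CPM, were named after their values were seen, to complete the counts. Positions and exonic lengths are from Gencode release M21 (GRCm38). Chain ratios were tested by exact permutation of P3 and P7 libraries. Alternatives were DESeq2 1.42.0 and its size factors, no filter, total count scaling, no fold threshold, 2 groups only and replicate number as a block. Further ones were the class by Xist and Y transcripts as a term, and each library left out. A length trend (lowess in R, span 0.3) was also removed from each library through edgeR offsets. The fits were tested on simulated data. The counts of replicates differed beyond sampling noise (chi-square per gene of 4.43 to 13.2), so none was counted as a repeat of another.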

Additional observations from a re-analysis of the deposited data

Results flagged for a closer look

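In 16 collagen chain genes the difference between PAB and sham hearts itself differed between P7 and P3, by edgeR's quasi-likelihood test of the interaction at an adjusted p of at most 0.05. They were 8 of the 40 tested in each direction, against 13.3% and 12.6% of all genes. The values below are the log2 difference at P7 minus that at P3. The cartilage-type chains had 2.63 for Col9a1, 2.48 for Col2a1, 1.49 for Col9a2, 1.48 for Col9a3 and 0.86 for Col11a1. Col8a2 had 1.13, Col26a1 had 0.83 and Col12a1 had 0.80. The basement membrane chains had -0.79 for Col4a4, -0.44 for Col4a2 and -0.39 for Col4a1. Among fibrillar chains, Col5a3 had -0.75, Col3a1 had -0.49 and Col5a1 had -0.39. Col15a1 had -0.74 and Col6a3 had -0.59. The value for Col2a1 passed with an adjusted p of 0.048 and lost it under 10 of 20 alternatives. That for Col5a1 was lost under 11 of 20, that for Col4a1 under 8 and that for Col4a2 under 7. Those for Col8a2 and Col4a4 were lost under 5 and 4, and the other 10 under 0 to 3.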

How the results depend on the processing

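Of 46 calls of single collagen chain genes, none changed sign under the alternatives run, which were 22 for the 30 calls between groups and 20 for the 16 interactions, and DESeq2 kept the 45 calls it tested. Of these calls, 7 were lost with scaling by the total count, 10 with the length trend removed, 9 with a term for the Xist and Y class and 16 with both, and 9 and 7 without P7 PAB replicate 1 and 2. The cause was not tested. For the counts under alternatives, the share of all genes called in the same fit is given only where the fold threshold was dropped.

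With no fold threshold, chain genes lower at P7 were 15, and the age counts were 14 higher and 5 lower in sham and 3 lower in PAB hearts. Processing genes, 34 tested, were then 18 higher and 6 lower at P7, against 22.8% and 22.1% of all genes, 9 and 7 in sham, against 16.2% and 16.8%, and 9 higher in PAB hearts, against 22.3%. With scaling by the total count, chain genes were 2 higher and 7 lower with age in sham and 5 lower in PAB hearts, and processing genes 1 and 7 in sham and 1 and 4 in PAB hearts.

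With the length trend removed, alone and with the block, 3 and 3 chain genes were lower at P7, 2 and 2 in the interaction, and 1 and 1 processing genes were higher with age in PAB hearts. With the length trend removed and the class as a term, added after seeing the data as was the fit with the block, these counts were 2, 1 and 1, and 1 chain gene, Col8a1, was higher at P3. With the class term alone, 1 chain gene, Col8a1, was higher at P3 and 5 were lower in the interaction. Processing genes higher at P3 were 1, P3h2, with no filter, with DESeq2, with 2 groups only and with the length trend removed with the block. Processing genes lower with age were 1 in sham hearts with DESeq2, with 2 groups only, with the block, with the class term and with the length trend removed and the class term, and 1 in PAB hearts with the length trend removed and either the block or the class term.

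The replicate numbers did not pair the samples, with correlations of same-numbered deviations of -0.0998 to 0.144 over 15 pairs. With the replicate block, 9 chain genes were higher and 5 lower at P7, 8 were higher in the age comparison of PAB hearts, and 1 processing gene was higher there. Calls of Col3a1 at P7, at -0.56, and of Col2a1 in the interaction were lost.

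Leaving out each library in turn gave 0 to 1 chain genes higher and 0 to 0 lower at P3, 6 to 9 and 3 to 9 at P7, 3 to 6 and 3 to 5 with age in sham, 6 to 8 and 0 to 2 in PAB hearts, and 6 to 8 and 3 to 12 in the interaction. For processing genes it gave 0 to 1 and 0 to 0 at P3, 4 to 5 and 3 to 4 at P7, 2 to 2 and 1 to 2 in sham, and 1 to 3 and 1 to 4 in PAB hearts.

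Ratios in log2 ranged over left-out libraries from 0.33 to 0.43 for Col1a2/Col1a1, 0.54 to 0.67 for Col3a1/Col1a1, -0.022 to 0.0055 for Col4a2/Col4a1, 0.23 to 0.40 for Col5a2/Col5a1, -0.074 to -0.0079 for Col6a2/Col6a1 and -0.18 to -0.086 for Col6a3/Col6a1. Col4a2/Col4a1 changed sign without P3 PAB replicate 3, at 0.0027, without P7 sham replicate 2, at 0.0044, without P7 PAB replicate 1, at 0.0055, and within sham libraries, at 0.015. Within sham and PAB libraries the others were 0.28 and 0.53 for Col1a2/Col1a1, 0.66 and 0.46 for Col3a1/Col1a1, 0.11 and 0.61 for Col5a2/Col5a1, 0.014 and -0.14 for Col6a2/Col6a1, and -0.0052 and -0.33 for Col6a3/Col6a1.

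The share of counts on collagen chains (sham and PAB at P3, then sham and PAB at P7) was 1.16%, 1.152%, 1.23% and 0.956% without mitochondrial counts, and 0.602%, 0.621%, 0.574% and 0.484% without Col1a1, Col1a2 and Col3a1. With 2 libraries in P7 PAB, and few counts of Col2a1, Col9a1, Col9a3, Col25a1 and Col28a1, the size of their differences is poorly determined.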
